A study of Penicillium oxalicum with 10 samples.

Results

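Separated genes of Penicillium oxalicum are genes whose expression did not overlap between 5 deletion strains that resemble each other and 4 deletion strains that stand apart. The close deletions are those labelled flbB, flbD, flbE, wetA and abaA, and the distinct deletions are those labelled flbA, flbC, stuA and swi6. A gene was taken when its RPKM (reads per kilobase of gene, scaled to the read total of the library) was higher in every close deletion than in every distinct deletion, or lower in every one, and when its mean over all 10 libraries of the series was at least 1 RPKM. Wild type played no part in the choice beyond that mean. Of 9859 genes in the deposited table, 9134 passed the filter and 1149 were separated, 705 of them higher and 444 lower in the close deletions. These members were chosen on the values that describe them, and the sets were themselves put together from likeness in these libraries, so the differences below are descriptions and carry no test.

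Penicillium oxalicum is a soil mould that secretes enzymes against plant cell walls. In Aspergillus, a related mould, FlbB, FlbC, FlbD and FlbE are transcription factors or partners that switch on brlA, the central activator of asexual spore formation, while FlbA lets development proceed by restraining G protein signalling. AbaA and WetA act after BrlA in the later steps of the spore-bearing structure and the spore, and StuA is an APSES-type regulator that shapes that structure. Swi6 is a cell cycle factor in budding yeast but a heterochromatin protein in fission yeast, and which of them the deleted gene resembles is not given in the sources used here.

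Digital gene expression profiles came from mycelia, with 1 library for each labelled deletion and 1 for the wild type strain, M12. All 10 cultures carried the same treatment, a preculture of 20 h and then 48 h of growth at 30 °C with 2% glucose. The libraries held 6.89, 7.60, 7.26, 6.61 and 7.04 megareads in the flbB, flbD, flbE, wetA and abaA deletions, 3.10, 4.44, 7.11 and 5.61 megareads in the flbA, flbC, stuA and swi6 deletions, and 5.15 megareads in wild type. Values of the close and distinct deletions are given in these 2 orders throughout. No strain has a replicate, so no value has a replicate error, and whether a strain rests on 1 clone is not given in the sources used here. In mixed mycelium, fewer cells of a kind and less RNA per cell cannot be told apart.

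Several libraries need care. The gene named FlbD (PDE_03008) reached 327 RPKM in the library labelled flbD deletion, close to the 341 RPKM of wild type. A gene of the TEA family, to which AbaA belongs (PDE_02932, named transcriptional enhancer factor), stood at 59.1 RPKM in the library labelled abaA deletion, against 28.5 RPKM in wild type. The gene named SOK2 (PDE_04095), an APSES-type gene, had 0.0733 RPKM, which is 1 read, in the stuA deletion, against 377 RPKM in wild type. PDE_08896, named chromobox protein 1, had 0.246 RPKM, also 1 read, in the swi6 deletion, against 43.9 RPKM in wild type. The flbA deletion was the shallowest library, 432 of the kept genes had 0 reads there, and PDE_06605 alone took 27.9% of its reads. That gene took 0.471% to 1.62% of reads in the close deletions, 9.72% in flbC, 0.0738% in stuA and 7.54% in swi6, and 7.73% in wild type. Its part in the results was tested only by leaving it out of the read total.

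The close deletions were higher for 705 genes, 7.72% of those tested, and lower for 444 genes, 4.86%. Most of these gaps were narrow. The median gap, which is log2(RPKM + 1) in the lowest library of the higher set minus that in the highest library of the lower set, was 0.31 for genes higher and 0.24 for genes lower in the close deletions. Nearest libraries lay at least 2-fold apart on that scale for 78 higher genes (0.854%) and 50 lower genes (0.547%). The ratio of RPKM between the nearest libraries had a 95% counting interval that left out 1 for 400 higher genes (4.38%) and 170 lower genes (1.86%). Such intervals are given in parentheses after each fold below and cover counting error only, not the spread between cultures.

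The split between directions depended on the scaling. Higher genes made up 61.4% of the separated genes. With median-of-ratios scaling they made up 55.8%, with 797 higher and 631 lower of 9108 genes. Higher genes made up 45.5% when PDE_06605 was left out of every read total (554 higher and 663 lower). The median difference of set medians over all genes was then -0.22 on the log2 scale, beside -0.10 with the deposited totals. Leaving out a library can only add genes. Without the libraries labelled flbD and abaA deletion 904 genes were higher and 1273 lower, without flbA 815 and 1197, without flbC 1124 and 501, without stuA 1058 and 759, and without abaA alone 754 and 695. Of the 705 higher genes 447 (63.4%) stayed separated under both other scalings and after thinning all libraries to the smallest read total, as did 306 of the 444 lower genes (68.9%). Of the genes at least 2-fold apart 77 of 78 higher and 50 of 50 lower ones did so.

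**Figure D1:**
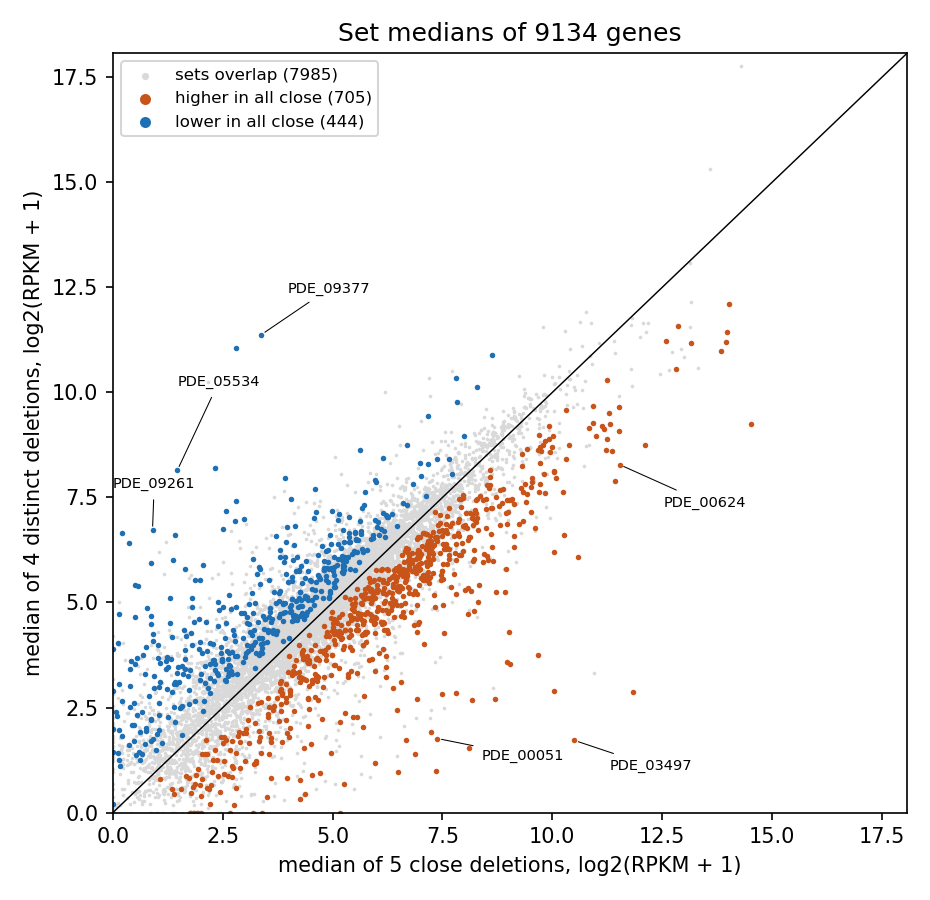
Median log2(RPKM + 1) over the 5 close deletions (x axis) and over the 4 distinct deletions (y axis) for 9134 genes, 1 point per gene, with the line of equality. The 705 genes higher in all close deletions lie below the line and the 444 lower genes above it, with 7985 overlapping genes in grey.

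The close deletions varied less among themselves, which their choice by likeness fixes. Over all tested genes the median range of log2(RPKM + 1) was 0.76 among the 5 close deletions and 1.43 among the 4 distinct deletions. Among the separated genes it was 0.77 and 1.25 for those higher in the close deletions, and 0.68 and 1.06 for those lower. Medians of the close deletions exceeded those of the distinct deletions by 1.19 on the log2 scale in the median higher gene and were 1.14 apart in the other direction (-1.14) in the median lower gene, beside -0.10 over all tested genes. The mean level over all 10 libraries had a median of 61.0 RPKM for higher genes, 23.2 RPKM for lower genes and 28.9 RPKM for all tested genes. That mean holds the values used in the choice, so this contrast is not independent of it. Higher genes had a median length of 1122 bases, against 1497 bases for lower genes and 1176 bases for all.

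At the edge of the rule the sets all but touched. Autophagy-related protein 13 (PDE_08954), part of the complex that starts autophagy, was just inside, with 61.4, 46.9, 58.7, 61.99 and 49.02 RPKM in the close deletions and 26.7, 29.4, 46.9 and 39.1 RPKM in the distinct deletions. The unnamed PDE_06895 was just inside too, with a lowest close value of 13.3 RPKM in flbD and a highest distinct value of 13.3 RPKM in flbC. Just outside stood Rab-1A (PDE_09122), a small GTPase of the secretory route, with 706.5 RPKM in the flbD library and 706.7 RPKM in stuA, and PDE_04034, with 10.4 RPKM in both wetA and flbC. In the lower direction, ARF GTPase-activating protein 1 (PDE_09719) was inside with 23.3 RPKM as both its highest close and its lowest distinct value. Pcf11 (PDE_02369), of the mRNA cleavage complex, was inside with 22.6 RPKM in both wetA and stuA. PDE_09238 and PDE_03922, with 0 reads in all close deletions and also in flbA and stuA, were outside by a tie.

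Genes for spore development were few in the annotation. Of 5 measured regulators 2 were higher in the close deletions and 0 lower, beside 7.72% and 4.86% of all tested genes. FlbD (PDE_03008) had 260.3, 327, 253, 524 and 320.1 RPKM in the close deletions, 27.6, 76.2, 8.23 and 62.8 RPKM in the distinct deletions and 341 RPKM in wild type. Every distinct deletion was below every other library, and the nearest pair, flbE and flbC, was 3.32-fold (2.95 to 3.75) apart. The TEA-family gene PDE_02932 had 15.98, 21.1, 17.1, 21.9 and 59.1 RPKM in the close deletions, 1.89, 14.2, 4.06 and 5.08 RPKM in the distinct deletions and 28.5 RPKM in wild type. The library labelled abaA deletion was its highest, and flbC came within 1.12-fold (0.916 to 1.38) of the close deletions, an interval that includes 1.

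The central activator BrlA (PDE_00087) was not separated with the deposited totals. It had 85.2, 86.7, 70.8, 105 and 107 RPKM in the close deletions, 0.249, 98.8, 1.303 and 1.79 RPKM in the distinct deletions and 248 RPKM in wild type. The flbC deletion lay inside the close range, and the other 3 distinct deletions were at 1.79 RPKM or less. With median-of-ratios scaling BrlA was just separated, by a gap of 0.02. Under that scaling 3 of the 5 regulators were higher in the close deletions, beside 797 of 9108 genes. SOK2 (PDE_04095) and PDE_08896 overlapped as well, since swi6 for the gene named SOK2 and flbC for PDE_08896 were above all close deletions. Of 5 spore wall and pigment genes 1 was separated, scytalone dehydratase (PDE_04496), an enzyme of DHN-melanin synthesis. It had 195, 151, 155, 86.1 and 101 RPKM in the close deletions, 0, 46.5, 1.097 and 5.91 RPKM in the distinct deletions and 417 RPKM in wild type, the highest of the 10 libraries.

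The ion transporter PDE_03497 held the widest gap on log2(RPKM + 1) with the deposited totals, 4.70, beside 4.61 for the unnamed PDE_03823. With PDE_06605 out of the read total PDE_03823 came first, with 4.76 against 4.71 for PDE_03497. Of 32 metal transporters 7 (21.9%) were higher and 3 (9.38%) lower in the close deletions, beside 7.72% and 4.86% of all tested genes. The sodium-exporting ATPase PDE_03497, a pump that expels sodium from the cell, had 1629, 531, 1011, 1799.7 and 1449.7 RPKM in the close deletions, 2.87, 1.796, 19.4 and 0.821 RPKM in the distinct deletions and 6.44 RPKM in wild type. It was low in all distinct deletions and in wild type, and the nearest pair, flbD and stuA, was 27.4-fold (24.9 to 30.1) apart. The unnamed gene with the next locus number, PDE_03498, had the same contrast, with 275, 101, 215, 372 and 354 RPKM in the close deletions, 1.07, 1.24, 5.901 and 2.75 RPKM in the distinct deletions and 4.07 RPKM in wild type.

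A further gene named sodium-exporting ATPase (PDE_04634) had 1171, 658, 724, 1143 and 1049 RPKM in the close deletions and 20.2, 87.8, 206 and 59.98 RPKM in the distinct deletions, 3.19-fold (3.09 to 3.300) apart at the nearest pair. Here wild type, at 488 RPKM, lay between the sets. The calcium-transporting ATPase PDE_05150 had 38.5, 34.8, 35.6, 51.03 and 38.1 RPKM in the close deletions, 13.9, 4.402, 3.91 and 1.61 RPKM in the distinct deletions and 4.797 RPKM in wild type. The 3 Ca2+:H+ antiporters, which load calcium into the vacuole, were separated by narrower gaps of 0.40 (PDE_02875), 0.10 (PDE_01332) and 0.06 (PDE_05791), of which PDE_01332 overlapped under both other scalings and PDE_05791 with PDE_06605 out of the read total. The metal iron transporter PDE_08408 had 262 to 305 RPKM in the close deletions and 61.6 to 207 RPKM in the distinct deletions, and overlapped under both other scalings. In the lower direction the high-affinity iron transporter PDE_07611 had 1.48, 6.22, 1.78, 1.26 and 1.45 RPKM in the close deletions, 13.4, 27.9, 49.6 and 16.8 RPKM in the distinct deletions and 13.5 RPKM in wild type. Its nearest pair, flbD and flbA, was 2.16-fold (1.41 to 3.29) apart.

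Of 55 measured chaperones, 6 (10.9%) were higher and 1 (1.82%) lower in the close deletions, beside 7.72% and 4.86% of all tested genes. The other 48 overlapped. The median chaperone was at -0.17 in the close minus the distinct deletions on the log2 scale, beside -0.10 over all genes. The list as a whole was thus not raised in the close deletions. ClpB (PDE_00624), a disaggregase that pulls apart aggregated proteins, had 3127, 2090.4, 3236, 2971 and 2232 RPKM in the close deletions, 582, 194, 494 and 66.1 RPKM in the distinct deletions and 18.5 RPKM in wild type. All 9 deletions exceeded wild type, and the close ones were 3.59-fold (3.48 to 3.71) apart from the nearest distinct deletion, flbA. That gap of 1.84 on the log2 scale was 1.20 with median-of-ratios scaling and 1.38 with PDE_06605 out of the read total. The separated members include co-chaperones of Hsp70. The DnaJ homolog PDE_09312 had 1463, 1270.1, 1529, 1151 and 869 RPKM in the close deletions, 407, 282, 500.5 and 172 RPKM in the distinct deletions and 112 RPKM in wild type. GrpE (PDE_08711), the nucleotide exchange factor of mitochondrial Hsp70, had 354 to 514 RPKM in the close deletions, 75.1 to 247 RPKM in the distinct deletions and 33.9 RPKM in wild type. The DnaJ homolog PDE_02975 had 735 to 1065 RPKM in the close deletions and 349 to 587 RPKM in the distinct deletions, and overlapped under both other scalings. A further DnaJ homolog, PDE_07443, had a gap of 0.15, with 7.83 to 13.1 RPKM in the close deletions and 4.79 to 6.93 RPKM in the distinct deletions. For PDE_07443 wild type, at 9.11 RPKM, lay within the close range. The chaperone that was lower was protein disulfide-isomerase A6 (PDE_07464), which forms disulfide bonds in the endoplasmic reticulum, with 33.3 to 70.1 RPKM in the close deletions and 76.98 to 109 RPKM in the distinct deletions.

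Ubiquitin C (PDE_03961), the tag for protein breakdown, had 8290.5, 6681, 7458, 9042 and 7034 RPKM in the close deletions, 2781, 3336, 4248 and 2238 RPKM in the distinct deletions and 1909 RPKM in wild type. Of 123 proteasome and ubiquitin genes, ubiquitin C included, 2 (1.63%) were higher and 7 (5.69%) lower in the close deletions. The shares of all tested genes were 7.72% and 4.86%, so that the lower share was near the background. The number lower was 14 with median-of-ratios scaling, beside 631 of 9108 genes under that scaling. The 26S proteasome subunits N1 (PDE_07521) and T2 (PDE_09707) were among those lower, with gaps of 0.04, lost after thinning, and 0.01, lost with PDE_06605 out of the read total.

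Transcription factors had the next largest share of higher genes after metal transporters, among lists of at least 20 members. Of 37 measured, 7 (18.9%) were higher and 2 (5.41%) lower in the close deletions, a count that includes FlbD and PDE_02932 from above. With median-of-ratios scaling 8 transcription factors and 5 metal transporters were higher, beside 797 of 9108 genes. The zinc finger gene PDE_07902 had 2843, 1590.5, 2339, 3129.9 and 2387 RPKM in the close deletions, 678, 358, 437 and 164 RPKM in the distinct deletions and 65.8 RPKM in wild type. As for ClpB, every deletion was above wild type. PDE_07674, named for the xylanolytic and cellulolytic activator of hydrolase genes, had 35.3, 36.6, 41.6, 48.1 and 51.6 RPKM in the close deletions, 15.7, 29.5, 31.4 and 20.1 RPKM in the distinct deletions and 36.9 RPKM in wild type. The separation of that gene was narrow, with a gap of 0.17, and wild type lay within the close range.

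Ribosome biogenesis genes had separated members and cytosolic ribosomal proteins had none. Of 93 ribosome biogenesis genes 8 (8.6%) were higher and 0 lower in the close deletions. The shares of all tested genes were 7.72% higher and 4.86% lower, so that the higher share was near the background. The median member was 0.37 higher in the close than in the distinct deletions, on the log2 scale, beside -0.10 over all genes. The U3 small nucleolar RNA-associated protein 19 (PDE_06465), of the small-subunit pathway, had 122, 99.9, 121, 117 and 100.4 RPKM in the close deletions, 13.8, 48.01, 59.4 and 29.98 RPKM in the distinct deletions and 18.8 RPKM in wild type. Wild type was as low as the distinct deletions. Of 79 cytosolic ribosomal proteins 0 were separated in either direction. Of 84 splicing and mRNA processing genes 8 (9.52%) were higher and 2 (2.38%) lower, led by the splicing factor SPF27 (PDE_02634) with 38.8 to 50.6 RPKM in the close deletions and 18.6 to 25.1 RPKM in the distinct deletions. Of 47 histone and chromatin genes 4 (8.51%) were higher and 0 lower, the higher share again near that of all genes. The higher ones included the centromeric histone H3 (PDE_01105), with 110.1, 52.7, 86.6, 197 and 93.5 RPKM in the close deletions and 16.9, 38.7, 27.7 and 21.7 RPKM in the distinct deletions. Of 98 translation factors and tRNA synthetases 3 were higher and 2 lower, and of 100 DNA replication and cell cycle genes 0 were higher and 2 lower. With median-of-ratios scaling the replication and cell cycle counts were 3 and 6, beside 797 and 631 of 9108 genes.

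**Figure D2:**
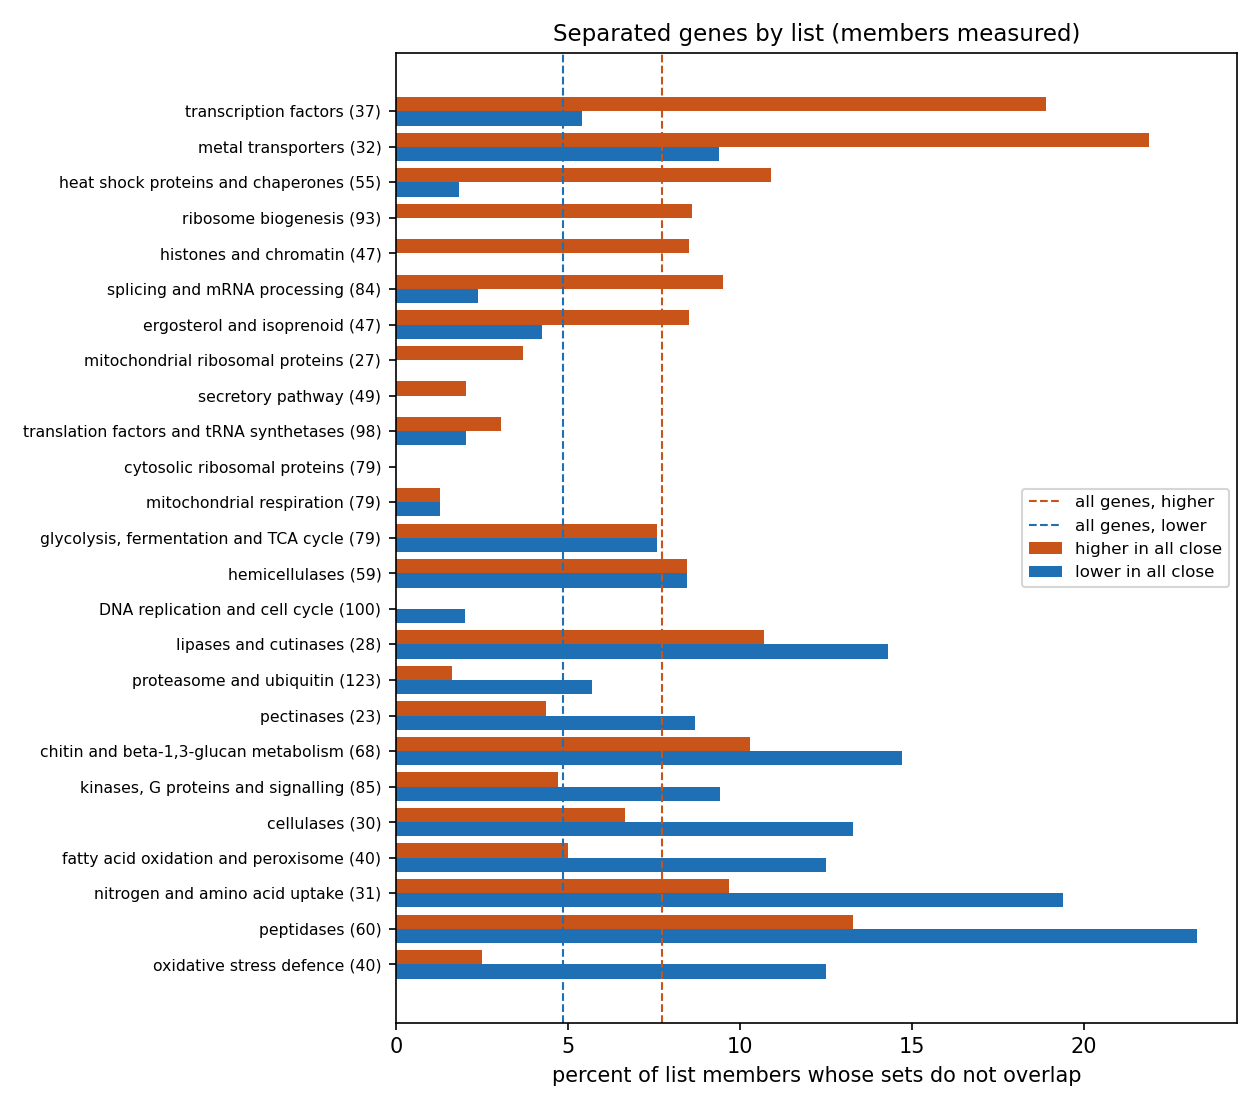
Percent of the measured members of each gene list whose sets did not overlap, higher (orange) and lower (blue) in the close deletions, for lists with at least 20 measured members, whose number stands in brackets. Dashed lines mark 7.72% higher and 4.86% lower over all tested genes, and peptidases have the highest share lower (23.3%), metal transporters the highest share higher (21.9%).

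Peptidases were separated in both directions. Of 60 measured, 8 (13.3%) were higher and 14 (23.3%) lower in the close deletions, beside 7.72% and 4.86% of all genes, and ClpB is counted here too. Carboxypeptidase D (PDE_00963), which trims residues from the C terminus, had 84.4, 81.9, 55.1, 71.3 and 86.01 RPKM in the close deletions, 4.89, 6.15, 7.52 and 10.1 RPKM in the distinct deletions and 146 RPKM in wild type. The nearest pair, flbE and swi6, was 5.47-fold (4.398 to 6.87) apart, and wild type was above all 9 deletions. The aminopeptidase PDE_02146 had 635, 319, 501, 519 and 403 RPKM in the close deletions, 8.51, 11.9, 113 and 10.1 RPKM in the distinct deletions and 152 RPKM in wild type. The stuA deletion stood above the other 3 distinct deletions, which had at most 11.9 RPKM.

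Both separated aspergillopepsin genes were lower, and carboxypeptidase D genes stood on both sides, with PDE_00963 and PDE_00005 higher and PDE_05305, PDE_06031 and PDE_06812 lower. The aspergillopepsin I gene PDE_07927, a secreted aspartic protease, had 5.196, 15.7, 5.28, 7.48 and 5.81 RPKM in the close deletions, 498, 21.9, 629.8 and 29.6 RPKM in the distinct deletions and 1047 RPKM in wild type. It was high in flbA, stuA and wild type, while flbC and swi6 were nearest to the close deletions. A further aspergillopepsin I gene (PDE_07344) had 0.855, 0.443, 0.927, 0.636 and 0.718 RPKM in the close deletions, 5.15, 138, 2.37 and 670.5 RPKM in the distinct deletions and 7.84 RPKM in wild type. For that gene flbC and swi6 were the high libraries. Carboxypeptidase D PDE_05305 had 3.73 to 4.76 RPKM in the close deletions and 120.2, 69.3, 14.01 and 9.89 RPKM in the distinct deletions, and tripeptidyl-peptidase I (PDE_01983) 0.0847 to 0.5899 RPKM in the close deletions and 15.9, 45.00, 2.52 and 7.69 RPKM in the distinct deletions.

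Uptake of nitrogen sources also split. Of 31 genes 3 (9.68%) were higher and 6 (19.4%) lower in the close deletions, beside 7.72% and 4.86% of all tested genes, so that the higher share was near the background. The oligopeptide transporter PDE_05534, which brings small peptides in with protons, had 1.76, 14.1, 2.11, 0.799 and 1.201 RPKM in the close deletions, 257, 309.9, 74.1 and 827 RPKM in the distinct deletions and 125 RPKM in wild type. The library labelled flbD deletion was the highest of the close set, 5.25-fold (4.51 to 6.14) below stuA. Urease (PDE_02913), which frees ammonia from urea, had 4.501, 8.94, 5.95, 6.71 and 5.36 RPKM in the close deletions, 27.7, 37.9, 28.4 and 29.1 RPKM in the distinct deletions and 9.98 RPKM in wild type. The urease accessory protein PDE_03580 was on the other side by a gap of 0.09, which was lost with PDE_06605 out of the read total, with 116 to 295 RPKM in the close deletions and 36.4 to 109 RPKM in the distinct deletions. The ammonium transporter PDE_03587 had 3.93 to 7.701 RPKM in the close deletions and 104, 19.9, 24.03 and 8.53 RPKM in the distinct deletions, with flbA highest. In the other direction the amino acid transporter PDE_00845 had 1391, 1542, 1826, 1672 and 1381 RPKM in the close deletions, 34.9, 128, 942 and 28.1 RPKM in the distinct deletions and 133 RPKM in wild type. The other 3 distinct deletions, stuA apart, were below wild type.

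Cell wall genes were separated on both sides as well, with 7 of 68 chitin and beta-1,3-glucan genes (10.3%) higher and 10 (14.7%) lower in the close deletions, beside 7.72% and 4.86% of all tested genes. The exo-beta-1,3-glucanase PDE_08250 had 61.4, 76.1, 54.6, 53.6 and 73.4 RPKM in the close deletions, 0.8200, 29.6, 1.07 and 1.51 RPKM in the distinct deletions and 63.7 RPKM in wild type. Wild type lay within the close range there. All 7 members that were higher had wild type on the close side, among them chitin synthases PDE_01856 (77.1 to 173 RPKM in the close and 40.3 to 63.4 RPKM in the distinct deletions), which overlapped under both other scalings, and PDE_08046 (18.3 to 27.2 RPKM in the close and 3.19 to 15.6 RPKM in the distinct deletions). Of the 10 that were lower, 8 had wild type on the distinct side and 2 between the sets.

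Among those lower, the beta-1,3-glucanosyltransglycosylase PDE_06951, of the enzymes that elongate wall glucan, had 4.93, 21.9, 8.33, 2.99 and 2.54 RPKM in the close deletions, 228, 129, 162 and 120.2 RPKM in the distinct deletions and 77.8 RPKM in wild type. The nearest pair, flbD and swi6, was 5.48-fold (4.79 to 6.28) apart. Its relative PDE_06441 had 224, 329.9, 406, 176 and 215 RPKM in the close deletions, 2181, 788, 1029 and 1619.8 RPKM in the distinct deletions and 605 RPKM in wild type. A SUN domain gene (PDE_00248) had 1.09, 3.96, 2.45, 1.35 and 1.46 RPKM in the close deletions and 30.9, 58.5, 12.3 and 36.8 RPKM in the distinct deletions. In contrast the alpha-1,6-mannanase PDE_00051, named for cutting mannan, was higher, with 155, 62.99, 166, 234 and 309 RPKM in the close deletions, 2.22, 2.58, 3.23 and 1.77 RPKM in the distinct deletions and 18.4 RPKM in wild type. All distinct deletions were at 3.23 RPKM or less, and the nearest pair was 19.5-fold (13.5 to 29.2) apart.

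**Figure D3:**
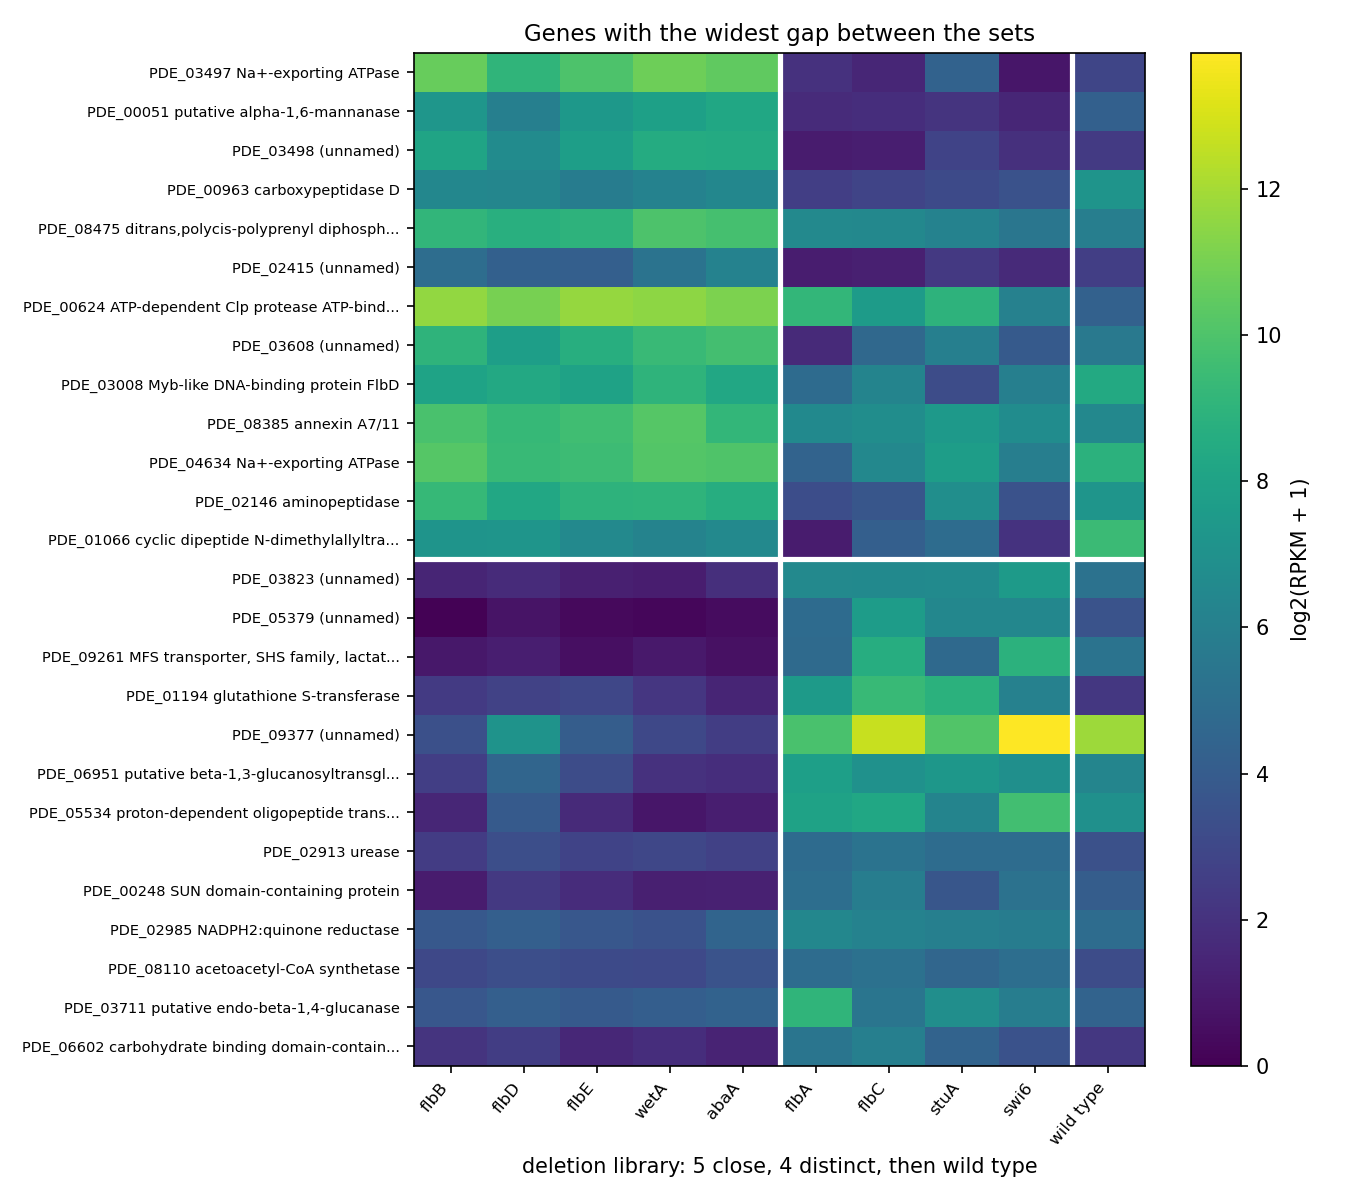
Level as log2(RPKM + 1) (colour) of the 26 genes with the widest gaps, 10 named and 3 unnamed in each direction with at least 10 RPKM in the lowest library of the higher set, in the 5 close deletions, the 4 distinct deletions and wild type (columns). The upper block is higher and the lower block lower in all close deletions, and wild type resembles the close deletions in some rows, such as PDE_03008 and PDE_01194, and the distinct deletions in others, such as PDE_03497.

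Enzymes against plant polysaccharides showed no common direction. Of 30 cellulases 2 (6.67%) were higher and 4 (13.3%) lower in the close deletions, beside 7.72% and 4.86% of all tested genes. Of 59 hemicellulases 5 (8.47%) were higher and 5 (8.47%) lower. The higher shares of both lists were near that of all genes. The endo-beta-1,4-glucanase PDE_09014 had 357, 307, 344, 545 and 423 RPKM in the close deletions, 158, 101, 156 and 140.3 RPKM in the distinct deletions and 78.6 RPKM in wild type. The endo-beta-1,4-glucanase PDE_03711 went the other way, with 12.7, 17.3, 13.9, 16.5 and 19.6 RPKM in the close deletions, 539, 40.6, 116 and 56.8 RPKM in the distinct deletions and 20.1 RPKM in wild type. Endo-beta-1,4-xylanase PDE_02101 had 5.29, 14.2, 5.61, 2.92 and 3.81 RPKM in the close deletions and 51.1, 18.8, 40.6 and 30.2 RPKM in the distinct deletions. Its nearest pair, flbD and flbC, was 1.32-fold (0.970 to 1.79) apart, an interval that includes 1. The xylanase PDE_05210 was at most 1.72 RPKM in the close deletions and reached 703 RPKM in stuA. Pectinases had 1 of 23 (4.35%) higher and 2 (8.7%) lower. Of the lower ones the polygalacturonase PDE_03218 had the wider gap, with 4.895 to 9.76 RPKM in the close deletions and 71.9, 44.9, 503 and 13.1 RPKM in the distinct deletions. Its nearest pair, flbE and swi6, was 1.34-fold (0.978 to 1.85) apart, an interval that includes 1. Amylolytic enzymes had 0 of 16 higher and 1 (6.25%) lower, the alpha-glucosidase PDE_09505, with a gap of 0.03 that was lost after thinning.

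Genes of defence against oxidants had 6 separated members. Of 40 oxidative stress genes 1 (2.5%) was higher and 5 (12.5%) lower in the close deletions, beside 7.72% and 4.86% of all tested genes. The glutathione S-transferase PDE_01194, of the family that couples glutathione to toxic compounds, had 4.03, 5.77, 6.84, 3.54 and 1.66 RPKM in the close deletions, 186, 659, 457 and 68.5 RPKM in the distinct deletions and 3.69 RPKM in wild type. Wild type lay within the close range, and swi6 was 10.02-fold (6.99 to 14.8) above flbE. A further glutathione S-transferase (PDE_07282) had 31.6 to 57.5 RPKM in the close deletions, 108 to 270.1 RPKM in the distinct deletions and 84.2 RPKM in wild type. The quinone reductase PDE_02985 had 12.99, 17.7, 12.6, 10.4 and 21.1 RPKM in the close deletions, 85.9, 71.2, 63.6 and 56.1 RPKM in the distinct deletions and 29.2 RPKM in wild type.

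The lactate transporter PDE_09261, of the family that moves carboxylic acids, had 0.867, 1.22, 0.457, 0.904 and 0.566 RPKM in the close deletions, 27.2, 392, 25.8 and 477 RPKM in the distinct deletions and 38.2 RPKM in wild type. No close deletion exceeded 1.22 RPKM, and the nearest pair, flbD and stuA, was 21.1-fold (12.3 to 39.1) apart. Both lactate dehydrogenases named here were higher in the close deletions, by gaps that depended on the scaling. D-lactate dehydrogenase (PDE_05825) had 143, 142, 206, 127 and 109.6 RPKM in the close deletions, 53.1, 50.7, 49.2 and 53.3 RPKM in the distinct deletions and 34.9 RPKM in wild type, and L-lactate dehydrogenase (PDE_01324) 218 to 366 RPKM in the close deletions, 55.5 to 202 RPKM in the distinct deletions and 40.5 RPKM in wild type. The gap of PDE_05825, 1.03, was 0.30 with median-of-ratios scaling and 0.58 with PDE_06605 out of the read total, and that of PDE_01324, 0.11, was -0.10 with median-of-ratios scaling, which is an overlap. Of all 79 glycolysis, fermentation and TCA cycle genes 6 (7.59%) were higher and 6 (7.59%) lower. The shares of all tested genes were 7.72% and 4.86%, so that the higher share was near the background. With median-of-ratios scaling 2 were higher, beside 797 of 9108 genes.

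Lipid and isoprenoid genes included single wide gaps. The polyprenyl diphosphate synthase PDE_08475, which builds the long carrier lipid for protein glycosylation, had 556, 428, 492, 1032 and 883 RPKM in the close deletions, 91.9, 86.95, 71.03 and 42.8 RPKM in the distinct deletions and 61.1 RPKM in wild type. Its nearest pair, flbD and flbA, was 4.66-fold (4.18 to 5.22) apart. Annexin A7/11 (PDE_08385), of a family that binds membranes with calcium, had 936, 635, 776, 1183 and 575 RPKM in the close deletions, 94.96, 112, 176 and 105 RPKM in the distinct deletions and 87.5 RPKM in wild type. No distinct deletion exceeded 176 RPKM. Acetoacetyl-CoA synthetase (PDE_08110) was lower, with 7.11, 8.91, 7.54, 7.48 and 10.5 RPKM in the close deletions, 29.4, 35.3, 23.04 and 31.3 RPKM in the distinct deletions and 8.299 RPKM in wild type. Of 40 genes of fatty acid oxidation and the peroxisome 2 (5%) were higher and 5 (12.5%) lower, beside 7.72% and 4.86% of all tested genes. With median-of-ratios scaling 9 were lower, beside 631 of 9108 genes. Of 28 lipases and cutinases 3 (10.7%) were higher and 4 (14.3%) lower. The cutinase PDE_04915, which cuts the plant cuticle polymer, had 9.901, 13.01, 17.2, 12.1 and 9.47 RPKM in the close deletions, 376, 50.8, 176 and 23.6 RPKM in the distinct deletions and 15.8 RPKM in wild type.

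Other lists had few separated members. Mitochondrial respiration had 1 of 79 higher and 1 lower, the secretory pathway 1 of 49 higher and 0 lower, and mitochondrial ribosomal proteins 1 of 27 higher and 0 lower in the close deletions. With median-of-ratios scaling the secretory pathway had 4 higher and 6 lower, beside 797 and 631 of 9108 genes. Signalling kinases and G proteins had 4 of 85 (4.71%) higher and 8 (9.41%) lower, beside 7.72% and 4.86% of all tested genes. The widest gap among the lower ones was in the MST4-type kinase PDE_09922, with 5.64 to 12.97 RPKM in the close deletions and 18.02 to 28.1 RPKM in the distinct deletions, and among the higher ones in protein kinase A (PDE_09813), with 70.2 to 98.04 RPKM in the close deletions and 26.3 to 55.2 RPKM in the distinct deletions. Ergosterol and isoprenoid genes had 4 of 47 (8.51%) higher and 2 (4.26%) lower, both near the shares of all tested genes. Of 6 genes named cytochrome P450 0 were separated. That list rests on the wording of the name, so enzymes of the family under other names are not in it. Of 78 genes annotated with heme binding 5 (6.41%) were higher and 9 (11.5%) lower, beside 7.72% and 4.86% of all tested genes. Of 7 sugar transporters 1 was higher, the sugar symporter PDE_00197. It had 818, 181, 776, 527 and 350.3 RPKM in the close deletions, 4.47, 19.4, 159.9 and 5.66 RPKM in the distinct deletions and 2.58 RPKM in wild type, so that stuA came near the flbD library.

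Most separated genes have no informative name in the annotation. A name was present for 208 of the 705 higher genes (29.5%) and for 174 of the 444 lower genes (39.2%), against 37.7% of all tested genes. Some of the widest gaps were in unnamed genes. PDE_03823 had 1.66, 2.26, 1.31, 1.15 and 2.71 RPKM in the close deletions, 89.6, 93.9, 99.95 and 190.5 RPKM in the distinct deletions and 36.98 RPKM in wild type. The nearest pair, abaA and flbA, was 33.1-fold (17.5 to 70.5) apart, and wild type lay between. PDE_05379 had 0.0611, 0.665, 0.2897, 0.191 and 0.359 RPKM in the close deletions, 28.2, 199.5, 84.2 and 84.6 RPKM in the distinct deletions and 10.5 RPKM in wild type. PDE_09377 was the most abundant of the 3, with 9.405, 137, 16.3, 6.91 and 4.69 RPKM in the close deletions, 932, 6547, 1079 and 14938 RPKM in the distinct deletions and 3675 RPKM in wild type. Within the close set it was uneven, since the library labelled flbD deletion had 137 RPKM and the next highest had 16.3 RPKM. In the higher direction PDE_03608 had 512, 221, 408, 678 and 837 RPKM in the close deletions and 2.197, 24.7, 61.9 and 14.2 RPKM in the distinct deletions, and PDE_02415 30.2, 18.01, 17.5, 38.03 and 70.1 RPKM in the close deletions and 1.13, 1.32, 3.95 and 2.09 RPKM in the distinct deletions.

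Absence of reads marked few members. In 3 higher genes (PDE_01075, PDE_02874 and PDE_05684) all 4 distinct deletions had 0 reads, and in 2 lower genes (PDE_07656 and PDE_07872) all 5 close deletions had 0 reads. A count of 0 allows up to 3 reads, which on a gene of 1 kilobase ranges between 0.395 RPKM for the deepest library and 0.967 RPKM for flbA. The lowest library of the higher set had 5 reads in PDE_05684 and 1 or 2 reads in the other 4 genes, so no fold is given for them, and PDE_02874 and PDE_07872 were no longer separated after thinning.

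Some separated genes neighboured each other by locus number, a property the choice did not use. Runs of at least 2 consecutive numbers in the same direction held 257 of the 705 higher genes (36.5%) and 107 of the 444 lower genes (24.1%). No reference share was worked out, so whether these shares are large was not tested. The longest run was PDE_01063 to PDE_01068, with 6 genes higher in the close deletions. It includes PDE_01064, named fumitremorgin C monooxygenase, and PDE_01066, named cyclic dipeptide N-dimethylallyl transferase, a kind of enzyme that puts prenyl groups on dipeptide alkaloids. PDE_01066 had 142, 148, 92.4, 73.6 and 91.6 RPKM in the close deletions, 1.06, 17.1, 28.5 and 3.07 RPKM in the distinct deletions and 688 RPKM in wild type. PDE_01064 had 21.3, 19.3, 15.8, 15.7 and 18.1 RPKM in the close deletions, 0, 6.57, 0.274 and 0.231 RPKM in the distinct deletions and 68.9 RPKM in wild type. Wild type was on the close side for all 6 genes and above all deletions for 4 of them. For PDE_01063 the nearest pair, abaA with 18 reads and flbC with 4, was 2.84-fold (0.936 to 11.5) apart, an interval that includes 1.

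The next genes along the numbers were looked at after those values were seen. PDE_01073 to PDE_01076 formed a further run of 4 higher genes, all with wild type above every deletion, of which PDE_01076 was no longer separated after thinning. PDE_01073 had 9.34, 14.00, 9.47, 6.22 and 11.3 RPKM in the close deletions, 0, 0.603, 0 and 0 RPKM in the distinct deletions and 29.5 RPKM in wild type. Between both runs, PDE_01069, PDE_01070 and PDE_01071 overlapped because flbC lay within or above the close deletions, and PDE_01072 had 0 reads in every library. PDE_01071, named brevianamide F synthase, had 1.42, 1.99, 1.02, 0.466 and 0.617 RPKM in the close deletions, 0.1805, 3.62, 0.433 and 0.125 RPKM in the distinct deletions and 23.2 RPKM in wild type.

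**Figure D4:**
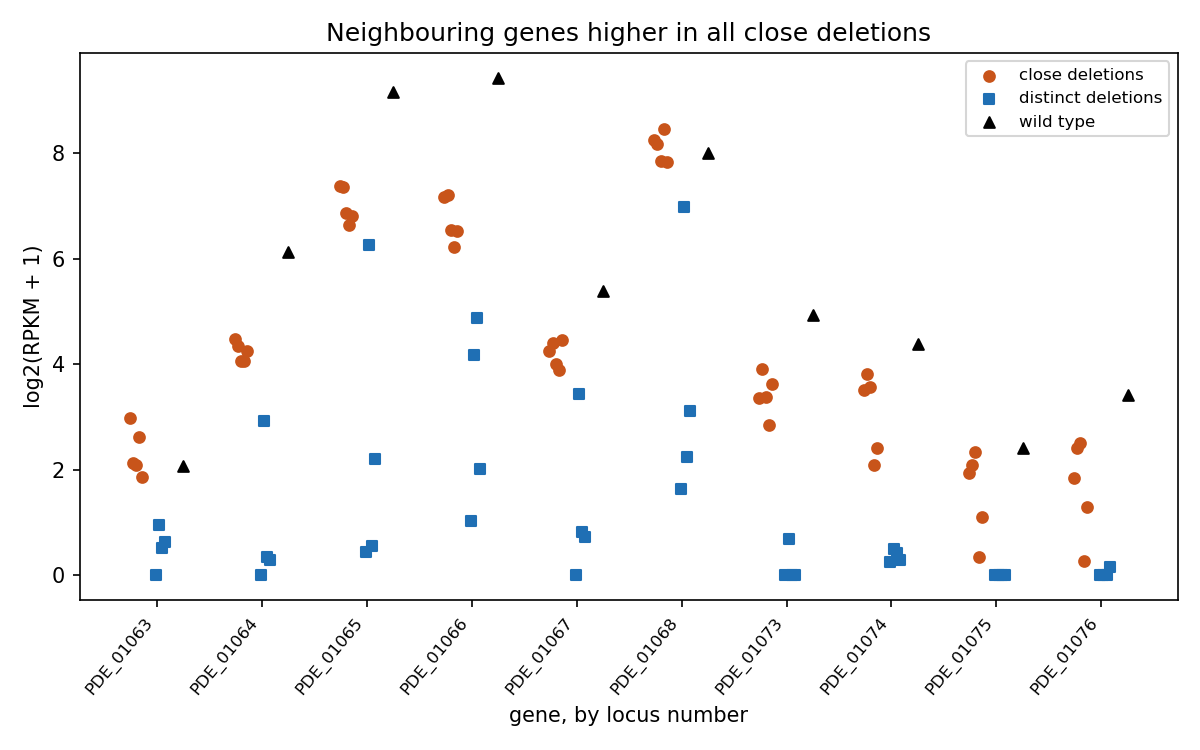
Level as log2(RPKM + 1) of the 10 genes higher in all close deletions between PDE_01063 and PDE_01076, ordered by locus number, with 1 point per library. The 5 close deletions (orange circles) lie above the 4 distinct deletions (blue squares) for every gene, and wild type (black triangles) is above all deletions for PDE_01064 to PDE_01067 and PDE_01073 to PDE_01076.

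The next longest runs had 5 genes each. PDE_01856 to PDE_01860, 5 higher genes, start with the chitin synthase above and hold Coq7 (PDE_01859), of ubiquinone synthesis, with 133 to 259.9 RPKM in the close deletions and 25.8 to 101 RPKM in the distinct deletions. They end with RTF1 (PDE_01860), of the Paf1 complex of RNA polymerase, with 71.5 to 103 RPKM in the close deletions and 16.3 to 37.8 RPKM in the distinct deletions. The unnamed PDE_01857 among them had 7 reads in flbE and 5 in swi6, its nearest pair. These were 1.08-fold (0.295 to 4.32) apart, an interval that includes 1. PDE_05036 to PDE_05040, also 5 higher genes, hold peroxin-19 (PDE_05037), which brings membrane proteins to peroxisomes, and the unnamed PDE_05040 with 1943, 1909, 2332, 2266 and 1737 RPKM in the close deletions, 809, 746, 919.5 and 830.2 RPKM in the distinct deletions and 732 RPKM in wild type. The first of these runs was broken under other scalings, since the gap of PDE_01856 was -0.05 with median-of-ratios scaling, and those of PDE_01856 and PDE_01859 were -0.18 and -0.07 with PDE_06605 out of the read total, a negative gap being an overlap. The longest run of lower genes was PDE_06564 to PDE_06567, with 4 genes. It holds a chitinase (PDE_06566) with 0.3103, 1.13, 0.258, 0.283 and 0.342 RPKM in the close deletions and 3.704, 6.01, 2.97 and 43.7 RPKM in the distinct deletions, and a chitin-binding gene (PDE_06567) that had at most 0.161 RPKM in the close deletions and reached 31.6 RPKM in swi6. This run rests in part on few reads. The nearest pairs had 6 and 3 reads in PDE_06564, 2.04-fold (0.437 to 12.6) apart, and 6 and 2 reads in PDE_06567, 2.79-fold (0.499 to 28.3) apart. Both intervals include 1. Lower genes formed 10 runs of at least 3 genes, of which 1 had at least 4. The runs of 3 tie in length, and only PDE_05888 to PDE_05890 and PDE_07610 to PDE_07612 are described from among them. The run of 3 lower genes PDE_05888 to PDE_05890 had gaps of 2.32, 1.31 and 0.18, and the last overlapped after thinning. In it the unnamed PDE_05888 had 0.421, 0.8902, 0.266, 0.584 and 0.137 RPKM in the close deletions, 8.41, 81.3, 21.2 and 446 RPKM in the distinct deletions and 227 RPKM in wild type. The gene named tryptophanase (PDE_05889) had 0, 0.409, 0, 0.118 and 0 RPKM in the close deletions, 2.504, 58.4, 2.73 and 243 RPKM in the distinct deletions and 35.9 RPKM in wild type. The run PDE_07610 to PDE_07612 holds the iron transporter PDE_07611.

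Wild type, which did not enter the choice of genes by direction, was more often on the side of the distinct deletions than on that of the close ones. It lay at or beyond the edge of the close deletions for 171 of the 705 higher genes (24.3%), between the sets for 101 (14.3%) and at or beyond the edge of the distinct deletions for 433 (61.4%). Of the 444 lower genes it was on the close side for 85 (19.1%), between the sets for 75 (16.9%) and on the distinct side for 284 (64.0%). The median higher gene was 0.92 above wild type in the close deletions and -0.19 from wild type in the distinct deletions, on the log2 scale. The median lower gene was -0.92 from wild type in the close deletions and 0.26 above it in the distinct deletions. Genes that overlapped leaned the same way, since wild type was nearer to the median of the close deletions than to that of the distinct ones for 33.0% of higher genes and 31.5% of lower genes, against 36.3% of the 7985 genes that overlapped.

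For genes at least 2-fold apart, wild type fell between the sets more often. The choice of wide gaps favours this by itself, since a wider gap leaves more room between the sets. Nothing about wild type is drawn from that rise. It was on the close side for 12, between for 24 and on the distinct side for 42 of the 78 higher genes, and on the close side for 8, between for 25 and on the distinct side for 17 of the 50 lower genes. ClpB, PDE_03497 and annexin are examples with wild type on the distinct side. FlbD, carboxypeptidase PDE_00963 and the dimethylallyl transferase PDE_01066 are examples with wild type on the close side.

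**Figure D5:**
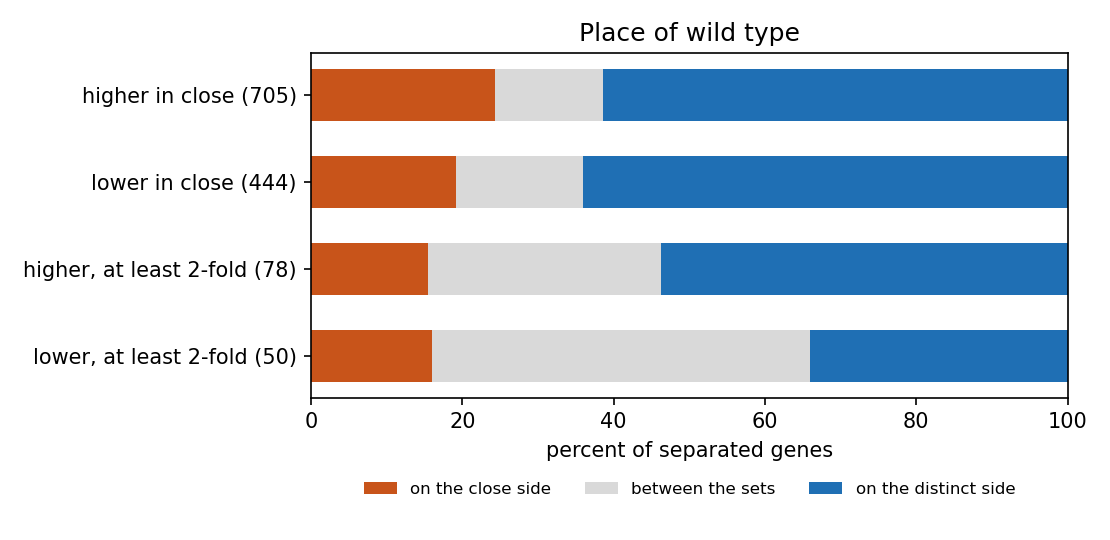
Percent of separated genes with wild type on the close side, between the sets or on the distinct side (colours), for the 705 higher and 444 lower genes and for the 78 and 50 of them at least 2-fold apart (rows). Wild type is on the distinct side for 61.4% of higher and 64.0% of lower genes, and between the sets for 25 of the 50 lower genes that are at least 2-fold apart. A wider gap leaves more room between the sets.

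The libraries at the edge of each set were often the same. The library labelled flbD deletion was the close library next to the distinct set for 259 higher genes (36.7%) and 217 lower genes (48.9%), and wetA was so for 68 (9.65%) and 31 (6.98%). On the distinct side stuA was next to the close set for 265 higher genes (37.6%) and 169 lower genes (38.1%). The flbC deletion was so for 261 higher genes (37.0%) but 62 lower genes (14.0%). The flbA deletion lay farthest from the close set for 435 higher genes (61.7%) and 132 lower genes (29.7%). Over the kept genes, the median log2(RPKM + 1) was 4.17 in flbA, the lowest of all libraries, and 5.07 in flbC, the highest. Whether such offsets of whole libraries shape these counts was not tested, and no share over all genes was worked out for them. PDE_03497 and the lactate transporter PDE_09261 both had the library labelled flbD deletion and stuA as their nearest pair.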

How the data were processed

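Digital gene expression libraries of mycelia, 1 per genotype, were used as deposited. Per the file headers, the authors' table holds 3 measures for each of 10 libraries, a count of unique reads on every gene, its RPKM, and its covered length in percent. The counts of each library summed to its total in the deposited header, and recomputing RPKM from them gave the deposited numbers to within a relative difference of 2.57e-08. Near-identical genes, such as those of 1 family, could lose reads to that choice, and whether the counting used strand is not stated. CASAVA 1.8 is named in the submitters' processing notes. Which aligner, genome build and annotation were used is not given in the sources used here. Totals ran from 3.10 to 7.60 megareads, and reads carry no molecular identifiers, so intervals and floors cover counting error only.

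Each gene's RPKM range in 5 close deletions was compared with that in 4 distinct deletions, with ties counted as overlap, for genes with a mean of at least 1 RPKM over 10 libraries. A gap is a difference of log2(RPKM + 1), which understates folds of weakly expressed genes. A fold is the RPKM ratio of the nearest libraries across the gap, with an exact conditional (Clopper-Pearson) 95% interval. With 1 library per genotype and sets formed from expression, no test was made. Wild type was called on the close or distinct side when it was at or beyond the edge of that set. The code was checked on simulated counts. Python 3.11.15, numpy 2.4.6, pandas 2.3.3, scipy 1.17.1 and matplotlib 3.10.9 were used.

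Names come from the product and KEGG text of the deposited table, informative for 3524 genes. The 31 gene lists are text patterns on that name, and a gene may stand in more than 1 list. The members, the lists and the rules were chosen with earlier results of these data known. Genes named are, per direction, the 10 named and 3 unnamed genes of the widest gap with at least 10 RPKM in the lowest library of the higher set, the widest in each list, 2 inside and 2 outside the threshold, the 3 longest runs and the deleted regulators. Not all lower runs that tie at 3 genes are named. Further genes of the lists were named after their values were seen. Alternatives were median-of-ratios scaling, a read total without the most abundant gene, no filter or a minimum of 5 RPKM, thinning to the smallest total, pseudocounts of 0.1 and 5, and leaving out libraries.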

Additional observations from a re-analysis of the deposited data

How the results depend on the processing

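Leaving out 1 library gave 752 to 1124 higher genes and 454 to 1197 lower genes, and every gene separated with all 9 libraries stayed so, since fewer libraries can only loosen the rule. The number of higher genes moved most without flbC (1124) and stuA (1058), and the number of lower genes most without flbA (1197), stuA (759) and abaA (695). Genes at least 2-fold apart then numbered 83 to 173 higher, with the top values without stuA (173) and flbC (163), and 51 to 133 lower, with the top values without flbA (133), stuA (106) and flbD (84). Without both libraries labelled flbD and abaA deletion, 1273 genes were lower, and 130 higher and 101 lower genes were at least 2-fold apart. Requiring a counting interval that leaves out 1 kept 400 higher and 170 lower genes. A pseudocount of 0.1 put 76 lower genes at least 2-fold apart, and a pseudocount of 5 put 27 there. With median-of-ratios scaling, wild type was on the close side for 128 lower genes and between the sets for 124. With PDE_06605 out of the read total, wild type was between the sets for 67 higher genes and on the distinct side for 447 lower genes. Apart from leaving out libraries, pseudocounts and the interval rule, whose construction sets the change, the cause was not tested.

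All 26 genes with the widest gaps, which were chosen for those gaps, stayed separated under every alternative run. Only both other scalings and the thinning could have made them overlap. Leaving out libraries loosens the rule, and pseudocounts and filters keep the order of RPKM. Of the 91 named separated genes, 7 overlapped with median-of-ratios scaling, 7 with PDE_06605 out of the total and 10 after thinning, and no difference of set medians changed sign. Of 32 further separated genes of the text, 4 overlapped with median-of-ratios scaling, 6 with PDE_06605 out of the total and 4 after thinning. No paired analysis was possible because each genotype is 1 library. Depth limits the weakly expressed genes, above all in the flbA deletion.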
